A study of Mus musculus with 9 samples.

Results

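The genes described here encode the machinery of MHC class II antigen presentation, and they were listed by name and function, by a rule that uses no measured value, although earlier results of these data were known. The list held 10 genes of 37980 in the deposited table: H2-Aa, H2-Ab1 and H2-Eb1, H2-DMa, H2-DMb1 and H2-DMb2, H2-Oa and H2-Ob, Cd74, and Ciita. All 10 were measured in mouse myeloid progenitors (MPs), sorted as Lin-c-kit+Sca1- bone marrow cells, and all 10 passed the filter on low values that 11987 genes passed.

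Class II molecules are heterodimers of an alpha and a beta chain that display peptides from endosomes to CD4+ T cells. In the endoplasmic reticulum the new heterodimer binds the invariant chain, encoded by Cd74, which is later cut down to a fragment named CLIP that fills the peptide groove. The heterodimer H2-DM (chains H2-DMa and H2-DMb) removes CLIP and edits the bound peptides, and the heterodimer H2-DO (H2-Oa and H2-Ob), best known from B cells and some dendritic cells, inhibits H2-DM. The coactivator Ciita binds a complex of DNA-binding factors at the X and Y boxes of class II promoters and is the main switch of the classical chains, the invariant chain and H2-DM, while H2-DO in B cells depends on it less.

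RNA was sequenced from 4 samples of MPs that carried the Nup98-Hoxa10hd fusion gene (NA MPs) and from 5 samples of wild-type MPs (WT MPs), each a sort of 100000 cells of strain C57BL/6. The multipotent progenitors (MPPs) behind the NA MPs came from NA LSL/+; Vav-Cre mice, in which Cre driven by the Vav promoter removes a stop cassette in blood-forming cells and switches on the fusion gene together with Tdtomato. These MPPs, or wild-type MPPs for the controls, were transplanted with helper bone marrow cells into irradiated adult C57BL/6 mice, and MPs were taken from the recipients' bone marrow 3 months later according to the labels, while the methods name a later month. NA MPs were gated on Tdtomato and WT MPs on CD45.2, an allele that the recipients are said to carry too. In blood, the paper followed wild-type donor cells by the other CD45 allele. It reported that their share fell steeply and later could not be detected. Donor and recipient origin of the WT MPs therefore cannot be told apart from these descriptions. Whether the WT MPs descend from the transplanted MPPs is not settled. Nothing states whether each sample came from a separate mouse, so p-values measure the spread between these samples, which may in part be technical.

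The values are gene counts that the authors had scaled by 1 factor per sample, called normalized counts below. The sums of reads recovered from the scaling ran from 5557701 to 8106138 per sample. Hoxa10, whose homeodomain part the fusion carries, lay at 115.72 to 154.86 normalized counts in NA MPs against 5.59 to 11.98 in WT MPs, which fits the labels of all 9 samples. The first principal component (65.8% of the variance) separated the groups, and NA MP sample 1 stood apart from the other 3 NA MP samples on the second (6.1%). NA MP sample 1 also had the lowest sum of reads, 5557701, and results that turned on it are given with and without it. Myeloid progenitor markers had high sums in all 9 samples, from 160824 to 180780 normalized counts. Mpo held most of these sums, with means of 107675 in NA MPs and 103947 in WT MPs. By the rule given below, 4 of the 10 tested markers were higher in NA MPs and 2 lower. The shares over all genes tested were 16.9% and 17.3%. The lower ones were Fcgr3 (log2 fold change -0.57) and Gata1 (-0.49), each with groups that did not overlap.

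Groups were compared with limma on log2(normalized count + 1), where a fold change is NA MP over WT MP and understates the change of genes with few counts. A gene was called at a Benjamini-Hochberg adjusted p under 0.05, adjusted over all 11987 genes tested. By this rule 3 of the 10 class II genes were higher in NA MPs (H2-Ob, H2-Oa and H2-DMa), 1 was lower (H2-Aa), and 6 were not called. The background was high, since 34.3% of all genes tested were called (16.9% higher and 17.3% lower), against 40% of the class II genes. Counts of called genes in the region and the lists below are to be read against the same shares. The median log2 fold change was -0.06 over the class II genes and -0.008 over all genes tested. This share lay near the background and is not a result about the group, and the genes are described singly below, by role. In such bulk samples more cells of a type and more RNA per cell cannot be told apart.

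**Figure D1:**
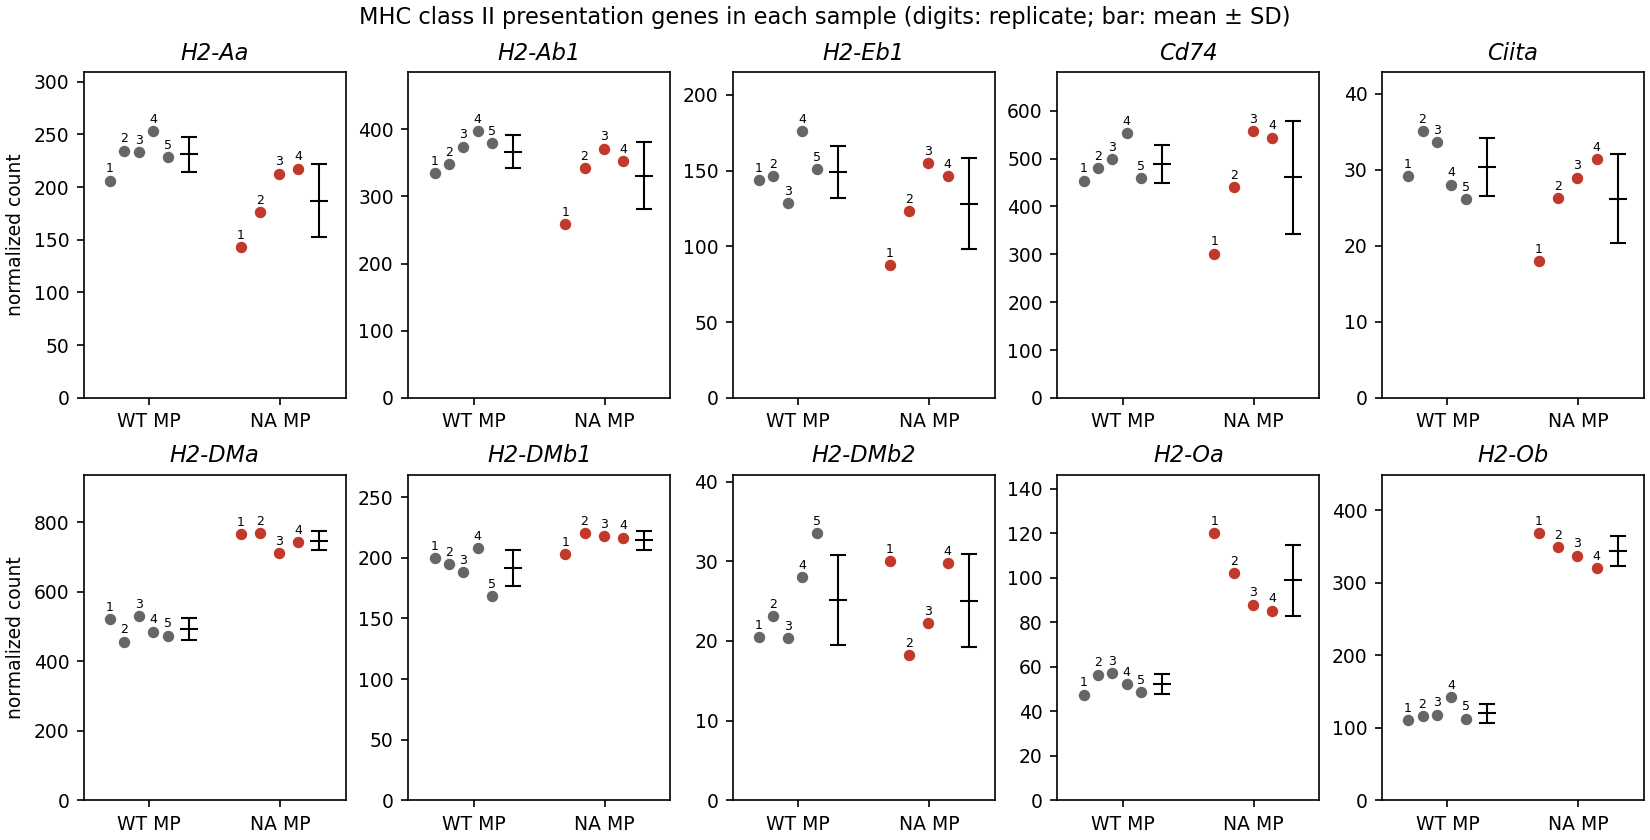
Normalized counts (vertical axis, from 0) of the 10 class II presentation genes in the 5 WT MP samples (grey) and the 4 NA MP samples (red), with the replicate number above each point and the mean ± SD beside each group. For H2-Ob all NA MP samples lie at 319.9 or above and all WT MP samples at 142.1 or below, whereas for Cd74 and the classical chains the groups overlap and NA MP sample 1 is the lowest.

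H2-Ob, the beta chain of H2-DO, rose the most of the class II genes. Its normalized counts were 368.5, 348.8, 337.4 and 319.9 in NA MP samples 1 to 4 and 110.1, 116.4, 118.2, 142.1 and 112.7 in WT MP samples 1 to 5. The highest WT MP value was well under the lowest NA MP value, so the groups did not overlap. The means were 344 ± 20.4 (SD, n = 4) and 120 ± 12.8 (SD, n = 5), a fold change of 2.859 (95% interval of the log2 value 1.36 to 1.67, limma adjusted p = 1.83e-20). Of all genes tested, 2.56% were called and more than 2-fold higher, and H2-Ob was the only class II gene among them.

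H2-Oa, the alpha chain of the same heterodimer, rose as well. It measured 120, 102.1, 87.96 and 85.14 normalized counts in the NA MP samples and 47.48, 56.47, 57.06, 52.03 and 48.45 in the WT MP samples. Here too the groups did not overlap, and NA MP sample 1 was the highest for both chains. The means of 98.8 ± 16.0 (SD, n = 4) and 52.3 ± 4.42 (SD, n = 5) gave a log2 fold change of 0.90 ± 0.12 (SE, limma adjusted p = 8.51e-08). H2-Oa shares 321 of its 1407 exon bases with BC051537, an antisense gene on the opposite strand, and since the strand setting of the counting is not given, reads in that stretch cannot be assigned to either.

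H2-DMa, the alpha chain of the peptide editor H2-DM, was the third gene to rise. The 4 NA MP samples held 765.9, 768.4, 711.5 and 743.1 normalized counts, and the 5 WT MP samples 520.1, 456.0, 529.8, 485.3 and 473.4. The groups were again apart, with little spread within either. The log2 fold change was 0.60 ± 0.05 (SE, limma adjusted p = 4.96e-14), from 493 ± 31.2 (SD, n = 5) to 747 ± 26.4 (SD, n = 4). H2-DMa shares 360 of 3448 exon bases with Brd2 on the opposite strand, whose own log2 fold change was 0.18 (limma adjusted p = 1.36e-06). These 3 genes are the class II genes whose groups did not overlap, and 26.3% of all genes tested had groups without overlap (13.5% with NA MPs higher).

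The beta chains of H2-DM were not called. H2-DMb1 ranged from 202.9 to 220.4 normalized counts in NA MPs and from 168.7 to 208.1 in WT MPs, a log2 difference of 0.16 with a 95% interval of 0.02 to 0.31 (limma adjusted p = 0.078). H2-DMb2 lay near 25.1 in both groups, with an interval from -0.41 to 0.40 and a direction that changed with the sample left out. The beta chain genes H2-DMb1 and H2-DMb2 are close copies, so that the split of reads between them is uncertain. Without WT MP sample 4, H2-DMb1 passed the threshold (log2 fold change 0.19, limma adjusted p = 0.0493).

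The classical chains, which form the surface molecules I-A and I-E, were not higher in NA MPs. H2-Aa, the I-A alpha chain, measured 142.9, 175.9, 212.7 and 217.4 normalized counts in the NA MP samples and 206.1, 234.4, 233.3, 253.2 and 228.3 in the WT MP samples. NA MP samples 1 and 2 lay below every WT MP sample, while samples 3 and 4 lay above the lowest WT MP sample. The log2 fold change was -0.32 ± 0.10 (SE, limma adjusted p = 0.0178), the only class II call in this direction. The value was -0.20 (adjusted p = 0.0491) without NA MP sample 1 and was no longer called without NA MP sample 2 (-0.30, adjusted p = 0.067).

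H2-Ab1, the I-A beta chain, ran from 258.1 to 370.8 normalized counts in NA MPs and from 334.5 to 397.2 in WT MPs (log2 difference -0.16, 95% interval -0.35 to 0.03, limma adjusted p = 0.198). H2-Eb1, the I-E beta chain, ran from 87.63 to 154.8 and from 128.4 to 176.1 (log2 difference -0.24, interval -0.57 to 0.08, adjusted p = 0.246). For both genes NA MP sample 1 was below all other 8 samples and the remaining NA MP values lay within or just under the WT MP range. Mice of the C57BL/6 strain lack a working I-E alpha chain, and the gene listed as H2-Ea-ps was at 0 in all 9 samples, so H2-Eb1 transcripts have no listed partner here. Summed over H2-Aa, H2-Ab1 and H2-Eb1, the NA MP samples held 488.6, 641.0, 738.2 and 715.8 normalized counts and the WT MP samples 684.2 to 826.5.

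Cd74, the invariant chain, had the widest spread in NA MPs. Its normalized counts were 301.3, 440.8, 557.8 and 543.9 in the NA MP samples and 454.3, 480.0, 499.2, 553.3 and 459.4 in the WT MP samples. NA MP samples 1 and 2 were below and sample 3 above all WT MP samples. The log2 difference was -0.12 (95% interval -0.56 to 0.31, limma adjusted p = 0.668) and turned to 0.07 without NA MP sample 1 (adjusted p = 0.542).

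Ciita, the coactivator, was the class II gene with the lowest level per kb. The NA MP samples held 18.01, 26.29, 28.95 and 31.41 normalized counts and the WT MP samples 29.14, 35.08, 33.62, 28.02 and 26.09, which corresponds to 15 to 41 reads. NA MP sample 1 was again the lowest, and the other NA MP samples lay inside the WT MP range. The log2 difference was -0.23 with a 95% interval of -0.60 to 0.15 (limma adjusted p = 0.371), which spans folds from 0.658 to 1.11.

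NA MP sample 1 was the lowest NA MP sample for 6 of the 10 class II genes (H2-Aa, H2-Ab1, H2-Eb1, H2-DMb1, Cd74 and Ciita) and the highest for 3 (H2-DMb2, H2-Oa and H2-Ob). Without it, the log2 differences of H2-Ab1, H2-Eb1 and Ciita shrank to -0.05, -0.07 and -0.07. H2-Ob, H2-Oa and H2-DMa stayed called whichever sample was left out, with log2 fold changes of 1.48 to 1.58, 0.80 to 0.96 and 0.57 to 0.63.

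**Figure D2:**
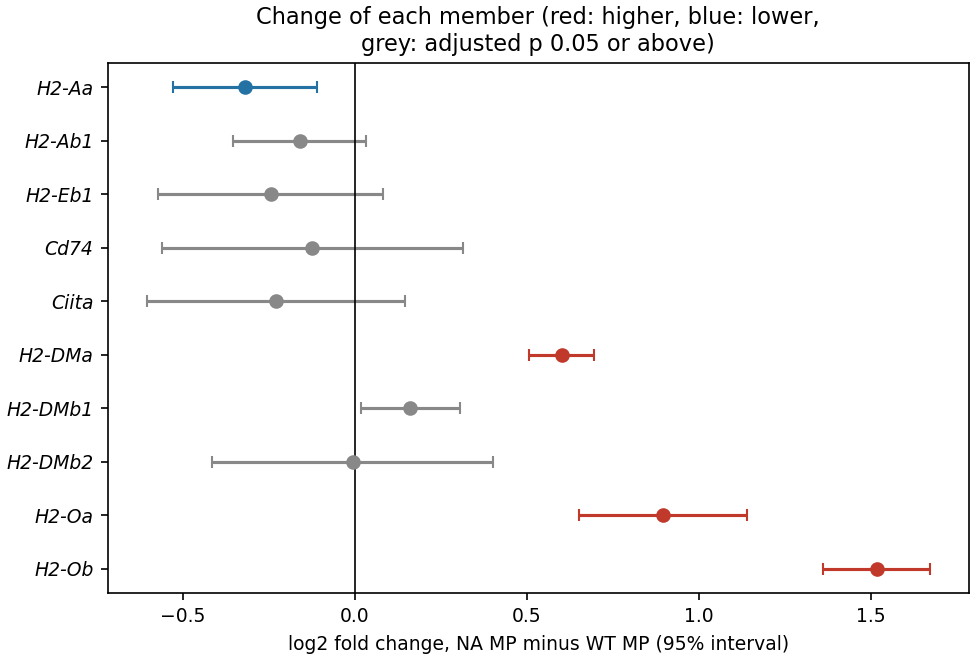
Log2 fold change of each class II gene, NA MP minus WT MP, with its 95% interval (horizontal axis). H2-DMa, H2-Oa and H2-Ob (red) lie at 0.60, 0.90 and 1.52, H2-Aa (blue) lies at -0.32, and the intervals of the other genes (grey) include 0 or, for H2-DMb1, start at 0.02.

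Levels can be compared between genes only per length, here as normalized counts per kb of annotated exon. In WT MPs, Cd74 had the highest level, 291 ± 23.8 per kb (SD, n = 5), followed by H2-Ab1 and H2-DMa, which did not differ beyond their spread (143 ± 9.77 and 143 ± 9.06), and by H2-DMb1 (114 ± 8.85). H2-Eb1 (76.7 ± 8.91) and H2-Aa (60.8 ± 4.43) came next, neighbours whose ranges overlapped marginally. Then came H2-Oa (37.2 ± 3.14), H2-Ob (22.3 ± 2.38), H2-DMb2 (14.4 ± 3.23) and Ciita (3.19 ± 0.40). The median over all genes tested was 54.1 per kb.

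In NA MPs the order of levels per kb was different. H2-DMa (217 ± 7.66, SD, n = 4) stood second after Cd74 (275 ± 70.6), and the H2-DO chains, H2-Oa at 70.2 ± 11.4 and H2-Ob at 63.9 ± 3.79, lay at the level of H2-Eb1 (65.8 ± 15.4) and above H2-Aa (49.3 ± 9.19). Relative to the longest transcript in place of all annotated exon bases, WT MPs held 44.9 per kb of H2-Ob and 39.0 of H2-Oa, which exchanges these neighbours, and H2-Ab1 (303) lay above H2-DMa (246). In NA MPs that length put H2-DMa (373) above Cd74 (327) and H2-Ob (129) above H2-Oa (73.7), H2-Eb1 (76.7) and H2-Aa (58.1), so these orders depend on the length used.

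The balance between partners was read as ratios of counts per kb within each sample, which are free of the scaling between samples and are given as a description. The ratio of H2-Ob to its target's beta chain H2-DMb1 was 0.568, 0.494, 0.483 and 0.462 in the NA MP samples and 0.172 to 0.213 in the WT MP samples. The ratio of H2-Ob to the classical beta chain H2-Ab1 was 0.682, 0.487, 0.434 and 0.434 against 0.142 to 0.171. Both ratios were apart between the groups, with NA MPs higher.

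Within H2-DO the ratio of H2-Oa to H2-Ob was lower in NA MPs, 0.997 to 1.25 against 1.40 to 1.86, and within H2-DM the ratio of H2-DMa to H2-DMb1 was higher, 1.59 to 1.84 against 1.14 to 1.37. For both heterodimers the groups did not overlap in the ratio of the chains. By contrast the ratios of Cd74 to H2-Ab1 (1.79 to 2.36 and 1.85 to 2.13), of H2-Ab1 to Ciita (41.6 to 53.2 and 36.9 to 54.0) and of H2-Aa to H2-Ab1 (0.348 to 0.417 and 0.407 to 0.455) overlapped between NA MPs and WT MPs.

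**Figure D3:**
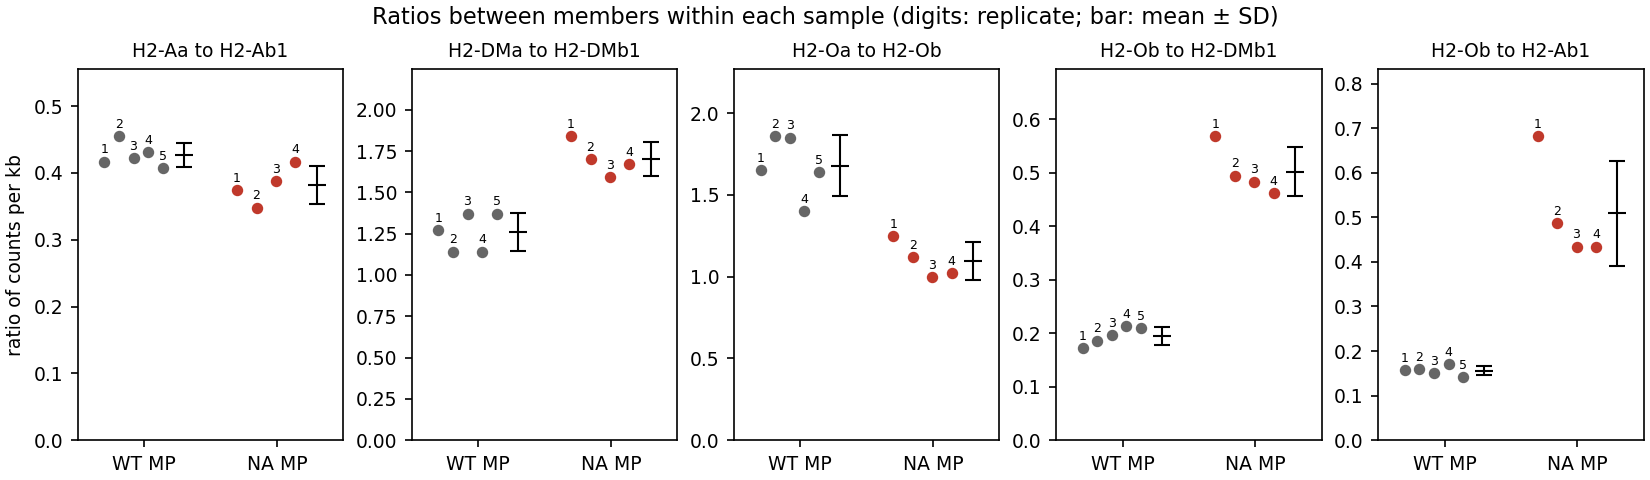
Ratios of normalized counts per kb between class II genes within each sample (vertical axes, from 0), for WT MPs (grey) and NA MPs (red), with replicate numbers and mean ± SD. The ratios of H2-Ob to H2-DMb1 and to H2-Ab1 lie at 0.434 or above in NA MPs and at 0.213 or below in WT MPs, while the ratio of H2-Aa to H2-Ab1 overlaps.

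Of the 10 class II genes, 8 lie together on chromosome 17 in the class II region of the H2 complex, from H2-Oa (chr17:34092340-34095234, plus strand) to H2-Eb1 (chr17:34305867-34316674, plus strand) in GRCm38. Ciita lies on chromosome 16 and Cd74 on chromosome 18. The region from Col11a2 to Btnl2, which lies past H2-Eb1 with H2-Eb2 and H2-Ea-ps between, held 21 genes of the deposited table. Of these, 15 were tested. Among the tested genes, 9 were called higher (H2-Oa, H2-DMa and H2-Ob among them) and 1 (H2-Aa) lower. Over all genes tested, 16.9% were called higher and 17.3% lower. Neighbours did not share 1 change: H2-Ob (chr17:34238903-34254414, plus strand) had a log2 fold change of 1.52, while the next tested gene, H2-Ab1 (chr17:34257689-34269419, plus strand), had -0.16. At the other end, H2-Oa (0.90) lay beside Col11a2 (0.56, limma adjusted p = 7.14e-06), a collagen gene. Between H2-DMb1 and H2-Ob lie genes of the class I pathway, and of these the peptide transporter chains Tap1 (0.19) and Tap2 (0.44) and the immunoproteasome subunit Psmb8 (0.31) were called higher.

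**Figure D4:**
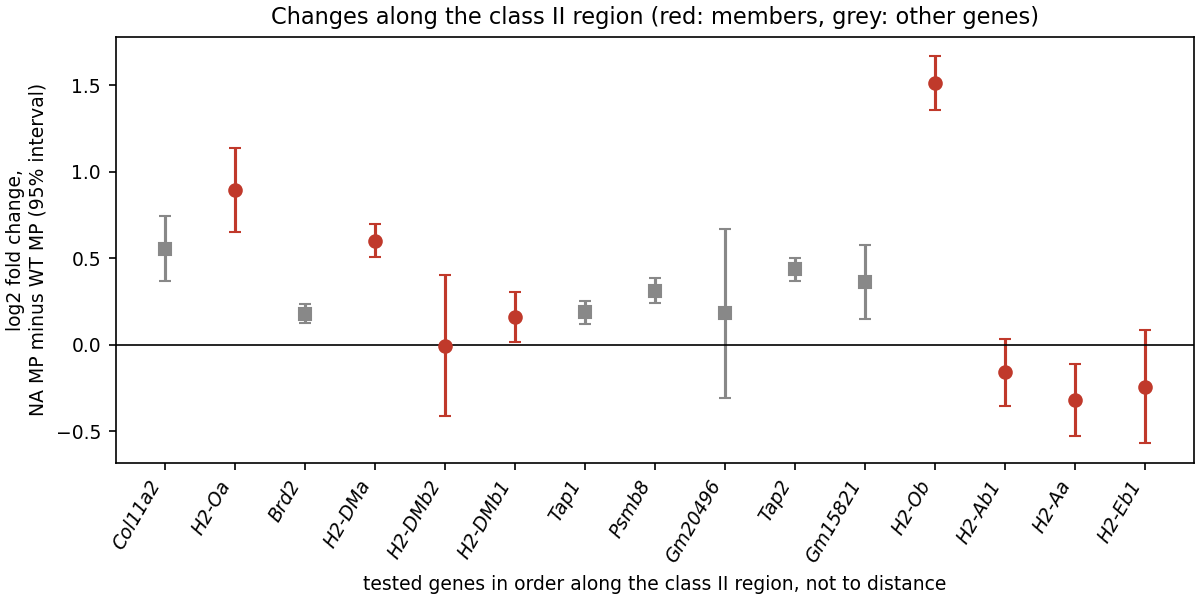
Log2 fold change, NA MP minus WT MP, with 95% interval (vertical axis) for the 15 tested genes of the class II region in their order along the chromosome, without distances (horizontal axis). Class II genes are red circles and other genes grey squares: H2-Ob at 1.52 stands next to H2-Ab1, H2-Aa and H2-Eb1, which lie at -0.16, -0.32 and -0.24.

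Promoters were compared because Ciita acts through boxes shared by these genes. RefSeq windows from 250 bases before to 50 bases after the start (GRCm38.p6) were at hand for 7 of the 10 class II genes, not for H2-Ab1, Cd74 and Ciita. The stretches below run from base 120 to base 31 before the start, 5′ to 3′ on the gene's strand, for a gene called lower (H2-Aa, chr17:34287854-34287943, minus strand), a gene not called (H2-Eb1, chr17:34305747-34305836, plus strand) and the gene that rose the most (H2-Ob, chr17:34238785-34238874, plus strand). Capitals mark the Y box core ATTGG and, in H2-Eb1, the X1 box core, a motif of 11 bases searched with any base allowed at its positions 3, 4 and 7.
H2-Aa: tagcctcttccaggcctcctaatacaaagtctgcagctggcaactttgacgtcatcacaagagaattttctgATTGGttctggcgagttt
H2-Eb1: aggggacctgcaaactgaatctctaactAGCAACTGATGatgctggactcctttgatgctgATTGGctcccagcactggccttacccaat
H2-Ob: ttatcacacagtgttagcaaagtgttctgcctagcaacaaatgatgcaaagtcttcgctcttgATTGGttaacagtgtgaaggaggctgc

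The Y core stood on the gene's strand in a window of all 7 genes, against 22.1% of 32851 RefSeq promoter windows. It began 48 bases before the start in H2-Aa, 59 in H2-Eb1, 57 in H2-Ob, 43 in H2-Oa, 61 in H2-DMb1 and 90 in H2-DMb2, and 198 in 1 of the 2 windows of H2-DMa. The X1 core was searched on both strands and stood in 3 of the genes (H2-Eb1, H2-DMb1 and H2-Oa), against 0.968% of windows. X1 followed by Y within 40 bases on 1 strand was found for H2-Eb1 (22 bases between) and H2-DMb1 (23 bases between), against 0.0426% of windows. The genes that rose and those that did not both included promoters with and without the exact X1 letters, and a match is a string of letters only, not a bound site. Near matches were not counted, and the H2-Ob stretch above holds one. A missing match therefore does not show that an X box is absent.

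Genes of the complex at the X and Y boxes changed little, both the factors that bind DNA and the acetyltransferases listed with them. Of 11 tested genes of this complex, 3 were called, all lower: Creb1 (log2 fold change -0.15, limma adjusted p = 0.00473), the histone acetyltransferase Ep300 (-0.14, adjusted p = 0.00381) and Nfya (-0.09, adjusted p = 0.0415). The median over the complex was 0.02, and Rfx5, the X box factor, was not called (0.10, adjusted p = 0.2).

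Among regulators that act upstream of Ciita, 4 of 10 tested were higher and none lower. Irf4, a factor of lymphoid and dendritic cells, was at 4.85 ± 1.5 normalized counts (SD, n = 5) in the WT MP samples and at 45.8 ± 15.0 (SD, n = 4) in the NA MP samples (log2 fold change 2.97, limma adjusted p = 7.35e-12). The interferon regulatory factors Irf1 (0.27) and Irf2 (0.22) and the myeloid factor Spi1 (0.14) were the others called, and Irf8, which drives monocyte and dendritic fates, was not (-0.04, adjusted p = 0.755). The median over this list was -0.03.

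Of 10 tested genes of the interferon gamma response, which induces Ciita in many cells, 3 were higher and 1 lower, with a median of 0.05. Cxcl10 (log2 fold change 1.49, limma adjusted p = 0.0159, from 5.49 ± 4.13 to 15.6 ± 8.32 normalized counts, groups overlapping), the GTPase gene Gbp2 (0.41) and Irf1 were the higher ones, and Gbp3 was lower (-0.28).

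Genes of endosomal processing, which cut the invariant chain and antigens, were called higher in 7 of 11 cases and lower in 1. The shares over all genes tested were 16.9% and 17.3%. The median log2 fold change of this list was 0.16. Lgmn, an asparaginyl endopeptidase, rose from 13.5 ± 5.56 (SD, n = 5) to 50.4 ± 7.47 (SD, n = 4) normalized counts (1.90, limma adjusted p = 4.95e-09). Cst3 (0.31), which encodes the protease inhibitor cystatin C, and the proteases Ctsd (0.30) and Ctss (0.29) rose by less, Ctss being the protease best known for the last cut to CLIP. Sppl2a, which clears the membrane stub of the invariant chain, was the 1 lower gene (-0.15, adjusted p = 0.00452).

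Of 9 tested genes of class II turnover and its surface partners, 1 was higher and 3 lower (median -0.11). March8, a ubiquitin ligase that can take class II off the surface, was lower (-0.43, limma adjusted p = 3.19e-07), as were Cd44 (-0.23), a partner of the invariant chain as a receptor, and the tetraspanin Cd82 (-0.31). The tetraspanin Cd37 was higher (0.42). Of the listed genes of costimulation and its inhibition, only Icosl (0.67) and Cd274 (0.31), an inhibitory ligand, had values high enough to test. Both were called higher. Cd80 lay at 3.6 to 8.27 normalized counts in NA MPs and 1.08 to 3.42 in WT MPs, and Cd86 at 4.8 to 11.1 and 1.02 to 3.0. Both were too low to test. The other untested genes of this list overlapped between the groups, and Cd40 did not exceed 4.8.

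Class I presentation, which serves CD8+ T cells, was called higher in 10 of 16 tested genes and lower in 1. The shares over all genes tested were 16.9% and 17.3%. The median log2 fold change of this list was 0.16. Tap2 (0.44, limma adjusted p = 2.43e-14) and the peptide loading factor Tapbp (0.32, adjusted p = 6.12e-10) had the largest changes, followed by Psmb8 (0.31) and the tapasin-related Tapbpl (0.23). The lower gene was the chaperone Canx (-0.09). Nlrc5, which is to class I genes what Ciita is to class II genes, was not called (-0.12, adjusted p = 0.0564).

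Markers of other cell types that express class II also moved. All 14 B lineage markers were higher in NA MPs, with a median log2 fold change of 3.22, with Rag1 (3.66), Ebf1 (3.52) and Cd79a (3.45) among the largest changes. Their summed normalized counts were 1595, 2835, 2837 and 2152 in the NA MP samples and 401.2 to 444.1 in the WT MP samples. The lineage antibodies of the sort included B220, a B cell antigen. Among the NA MP samples, sample 1 had the lowest B lineage sum. It was also the lowest for 6 of the 10 class II genes (H2-Aa, H2-Ab1, H2-Eb1, H2-DMb1, Cd74 and Ciita). For 3 others (H2-Ob, H2-Oa and H2-DMb2) it was the highest. Every NA MP sample lay above every WT MP sample in the sum and for H2-Ob, H2-Oa and H2-DMa, but not for the other class II genes. The part of B lineage cells in the class II values was not tested.

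Mature B cell markers were near their floor: Ms4a1 (CD20) did not exceed 0.932 normalized counts in any sample, and the 8 listed genes summed to 36.01 to 61.24 in NA MPs and 23.29 to 31.02 in WT MPs. Only Cd22 was high enough to test (log2 fold change 0.71, limma adjusted p = 0.0404), and its call was lost in 12 of the 19 alternatives. Of 8 tested dendritic cell markers 3 were higher and 1 lower, with sums of 1580 to 1724 against 1306 to 1420. The higher genes Tcf4, Flt3 and Bst2 held most of these sums. Zbtb46, a factor of classical dendritic cells, fell from 74.9 ± 5.88 (SD, n = 5) to 30.0 ± 5.56 (SD, n = 4). The 4 tested genes not called included Clec9a (log2 difference -0.55, limma adjusted p = 0.15). Xcr1 and Batf3 were too low to test, and their groups overlapped. Tcf4 (0.53), Flt3 (0.42) and Bst2 (0.20) were higher, and Siglech and Cd209a did not exceed 1.02 and 3.0 normalized counts.

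Monocyte and macrophage markers were higher in 6 and lower in 3 of 10 tested genes, against 16.9% and 17.3% of all genes tested. Their sums were 7629 to 8471 in NA MPs and 6867 to 7522 in WT MPs. Ly6c2 held most of these sums, with means of 5550 in NA MPs and 4728 in WT MPs. The complement genes C1qc (2.50), C1qa (2.34) and C1qb (1.95) and the lysosomal gene Cd68 (0.98) had the largest changes, and Ccr2 was lower (-0.59). Of the T cell and innate lymphoid markers, Cd3e, Cd3g and Trac were at 0 in all samples and Lck was the only gene tested (2.16), with sums of 52.82 to 74.6 against 20.53 to 33.02. The lineage antibodies, meant to remove mature cells, included Mac1 and Gr1 for myeloid cells and CD2, CD3e, CD4 and CD8a for T cells. The part of these cells in the class II values was not tested.

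**Figure D5:**
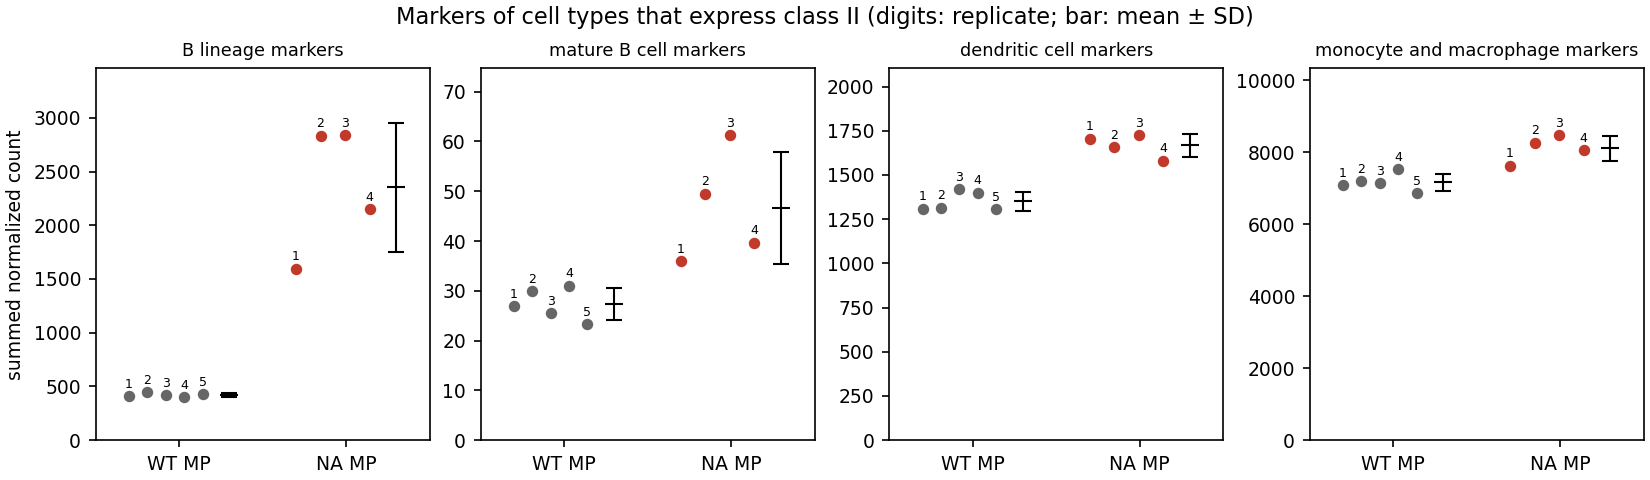
Summed normalized counts (vertical axes, from 0) of the markers of B lineage cells, mature B cells, dendritic cells, and monocytes and macrophages in each WT MP (grey) and NA MP (red) sample, with replicate numbers and mean ± SD. The B lineage sum lies at 1595 to 2837 in NA MPs and at 401.2 to 444.1 in WT MPs, and NA MP sample 1 has the lowest of the 4 NA MP values. Most of the monocyte and macrophage sum is Ly6c2, and most of the dendritic cell sum is Tcf4, Flt3 and Bst2.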

How the data were processed

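Poly-A RNA libraries (TruSeq) of 9 sorted MP samples were analysed. Per the labels and the study's methods, the authors used bcl2fastq, RSEM and DESeq2 with mouse build mm10; the annotation, the strand setting and the versions are not given in the sources used here. The deposited signal values are RSEM gene counts multiplied by 1 constant per sample: a read was worth 0.827 to 1.20, and 95.1% to 97.4% of values above 0 were whole multiples of it within 0.01. They were therefore not treated as raw counts, and limma (version 3.58.1 in R 4.3.3, with trend and robust options) on log2(value + 1) took the place of the count test planned in the design. Genes with a value of at least 10 in at least 4 samples were tested, 11987 of 37980 (20182 had any value), and p-values were Benjamini-Hochberg adjusted. Gene names matched for 32916 identifiers, and lengths and positions came from GENCODE M21 (GRCm38). On data simulated for NA MP against WT MP over 11889 genes, 97% of genes changed by a log2 of 1 and 83.8% of genes changed by 0.5 were recovered, with 6.77% false calls. The simulation changed 100 genes at each size and gave all genes the same small spread between samples. Genes such as Cd74 and H2-Eb1 spread more in NA MPs, so these rates do not hold for them.

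Replicates of a group differed by more than sampling noise (chi-square per degree of freedom 1.208 to 2.823), so each was counted once. Both groups share replicate numbers 1 to 4, but NA and WT MPPs were given to separate groups of recipients, and deviations from the group means correlated by only -0.02 to 0.057 between samples of the same number, so no block was used. The genes named are all 10 class II genes, up to 4 called genes with the largest changes from each other list with the defining markers of cell types, and the 5 genes with the profile most like the mean class II profile; genes named beyond this rule (such as Rfx5, Irf8, Nlrc5, the genes of the region and transcripts at low values) were chosen after their values were seen. A gene that this rule names is not reported here by itself. The class II genes and all lists were chosen with earlier results of these data known. Alternatives varied the scaling, filters, block, threshold, limma options, pseudocount and samples.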

Additional observations from a re-analysis of the deposited data

Results flagged for a closer look

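The H2-Ob value of WT MP sample 4, 142.1 normalized counts, stood apart from the other 4 WT MP samples, which lay at 110.1 to 118.2. The gap to the nearest sample was 0.747 of the whole range of the group, and no NA MP value was as low. Over 32 groups of values examined this was the 1 value so far from the others, where chance gives about 1 in 20 groups, or 1.6 here. Without this sample the call of H2-Ob was kept.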

How the results depend on the processing

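H2-DMa, H2-Oa and H2-Ob were called in all 19 alternatives, of which 14 were planned and 5 (pseudocounts of 0.5 and 5, limma without the robust or the trend option, quantile normalization) were added after seeing the data. H2-Aa was called in 16 of the 19 (adjusted p 0.00093 to 0.0875). Its call was lost at a threshold of 0.01, without NA MP replicate 2 (adjusted p = 0.067) and without the trend option (adjusted p = 0.0875). With 1 sample left out, 3 to 5 class II genes were called, against 4, and 3634 to 3952 of all genes, against 4107. The log2 difference of H2-DMb2, which was -0.006, turned to 0.102 with the replicate block and ran from -0.10 to 0.13 with 1 sample left out. That of Cd74 ran from -0.23 to 0.07. The replicate block over numbers 1 to 4, without WT MP replicate 5, called 3686 genes, and the pairing changed no class II call. Of the 4 numbers, 1 had its best correlation with its own number. Scaling to equal totals moved the median of all genes by -0.0147 (log2) and the share of higher calls from 49.4% to 44.3%. The planned count tests (edgeR with other size factors or without its robust option, DESeq2) were not run, since the values are not raw counts. The cause of these changes was not tested. Ciita and H2-DMb2 had the fewest counts, while Cd74 had the widest interval. How far depth limits these values was not tested.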

Other observations

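The genes whose profile over the 9 samples was most like the mean profile of the class II genes were 4930581F22Rik, the Polycomb genes Ezh1 and Bmi1, Unk and Abhd17b, with root mean square differences of 0.0397, 0.0492, 0.0521, 0.0541 and 0.0549 on the log2 scale. The mean profile averages genes that rose with genes that did not, and the log2 fold changes of these 5 genes were small, from 0.175 (Abhd17b) to 0.219 (Unk). The remaining class II gene of the region, H2-Eb2, did not exceed 2.4 normalized counts in any sample.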
